A study of Mus musculus with 50 samples.

Results

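MHC class I antigen presentation is described here through 10 genes: the heavy chains H2-K1, H2-D1 and H2-T23, the shared light chain B2m, the peptide pump Tap1 and Tap2, the loading factor Tapbp, and the immunoproteasome subunits Psmb8, Psmb9 and Psmb10. A probe was taken as a member where the platform annotation gave it one of these symbols. This found 9 probes for 8 of the 10 genes, among 20355 probes, of which 14030 carry 1 gene symbol, 5 carry several and the rest are unnamed here. H2-T23 has 2 probes (2238 and 2239), and H2-D1 and Tap2 were not analysed here because no probe carried their symbol. The samples were spinal cord and testis of wobbler mice (wr/wr), which carry a recessive allele of the vesicle tether gene Vps54 on both chromosomes and show motor neuron loss and defective sperm heads. Each was hybridised on 2-colour arrays against a pool of wild-type (wt) RNA of the same organ. Testis RNA came from 10 single wr/wr mice, with 4 arrays each. Cord RNA came from pool1 and pool2, each of 4 wr/wr mice and 4 arrays, and from the single mouse 5995 with 2 arrays. Age, sex and background strain are not given in the labels. Every mouse that gave cord RNA is also among the testis mice. The mutation is in all cells, and no annotated probe carried the symbol Vps54, so the mutated gene was not checked.

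Class I molecules show fragments of a cell's own proteins at its surface, where CD8 T cells and natural killer cells read them. The proteasome cuts proteins into peptides, the pump of TAP1 and TAP2 carries these into the endoplasmic reticulum, and tapasin (Tapbp) holds the pump next to the empty heavy chain and beta-2-microglobulin (B2m) until a peptide fits. Interferons raise most of these genes together, and exchange the constitutive catalytic subunits of the proteasome for Psmb8, Psmb9 and Psmb10. Neurons and male germ cells are known for low surface class I, while microglia, macrophages and endothelium carry more.

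Values are log2 ratios per RNA, with each array centred on its median and both dye orientations (mutant RNA in Cy5, or in Cy3) given equal weight. That the ratio is mutant over wild type on each array is likely from the channel order in the labels. It is not stated, and the opposite reading would turn every sign below without changing a call. The base of the logarithm is likewise read from the largest sizes in the table. The arrays of a given RNA agreed poorly between dyes: the Spearman rho over all probes between its Cy5 and Cy3 means ran from -0.309 to 0.361, and it was below 0 for 6 of the 13 RNAs. Values by dye are therefore given beside the results of the member probes. They are not given for the list genes, whose calls rest on the mean of both dyes. Each organ has 1 wild-type pool, so no test here includes the spread among wild-type mice. The RNAs of a tissue are separate mice or pools of mice. Ratios hold no levels, so the labelled tissues could not be checked against their defining markers. In whole organs, fewer cells of a type and less RNA per cell cannot be told apart.

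Apart from B2m on chromosome 2 (122147687 to 122153082, GRCm38.p6) and Psmb10 on chromosome 8 (105935728 to 105938392), the genes lie in the MHC on chromosome 17. Tapbp (33919478 to 33929290) and H2-K1 (33996012 to 34000619) stand before a block of Psmb9 (34182030 to 34187330), Tap1 (34187556 to 34197225), Psmb8 (34198195 to 34201454) and Tap2 (34204479 to 34216321). H2-D1 (35263094 to 35267497) and H2-T23 (36029977 to 36032701) follow. Psmb9 and Tap1 are read in opposite directions from starts separated by 225 bases, so they share the stretch between them. The sequences before the starts of the 4 genes whose ratios are compared most closely below are shown for that reason. They come from RefSeq (GRCm38.p6), which matched 9 of the 10 genes, and Tap2 had no entry. Capitals mark matches, on either strand, to the motifs searched. Those of H2-K1 (the first of its 2 entries) and Psmb8 hold the 250 bases before the start that the entry uses, which for H2-K1 lies inside the gene span given above.
Tap1 and Psmb9, chr17:34187331-34187555, plus strand, read towards Tap1: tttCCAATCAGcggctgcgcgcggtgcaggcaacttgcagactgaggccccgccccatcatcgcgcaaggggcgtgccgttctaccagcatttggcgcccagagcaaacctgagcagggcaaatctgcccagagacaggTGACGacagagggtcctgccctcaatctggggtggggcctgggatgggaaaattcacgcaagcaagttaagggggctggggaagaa
Psmb8, chr17:34197945-34198194, plus strand: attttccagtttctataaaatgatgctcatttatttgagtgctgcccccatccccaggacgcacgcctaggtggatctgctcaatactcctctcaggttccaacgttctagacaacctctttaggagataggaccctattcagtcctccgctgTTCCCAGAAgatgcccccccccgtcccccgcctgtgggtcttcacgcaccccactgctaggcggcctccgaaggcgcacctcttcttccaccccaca
H2-K1, chr17:34000348-34000597, minus strand: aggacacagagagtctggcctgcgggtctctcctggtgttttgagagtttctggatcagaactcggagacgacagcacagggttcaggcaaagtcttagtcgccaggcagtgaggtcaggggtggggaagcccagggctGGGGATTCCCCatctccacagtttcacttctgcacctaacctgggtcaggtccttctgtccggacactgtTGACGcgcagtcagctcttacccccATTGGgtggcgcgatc

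Of the 6 motifs searched in the 250 bases before each start, GAAANNGAAA, a form of the interferon-stimulated response element, was found for H2-T23 and B2m, and in 2.98% of all 32851 promoters of that length. TTCNNNGAA, the core of interferon-gamma activated sites, was found for Psmb8 and in 7.02% of promoters. The kappa B consensus was found for H2-K1, H2-D1 and B2m and in 7.25% of promoters. The overlapping Y box (CTGATTGG) and CCAAT matches differ in how often they occur. The Y box was present for 4 members (H2-D1, H2-T23, Tap1 and Psmb9) and in 3.83% of promoters, while CCAAT was present for 7 members and in 33.8%. TGACG, the core of cAMP response elements, was present for 5 members and in 17.8% of promoters. For the Y box, CCAAT and TGACG, Tap1 and Psmb9 hold the same bases. A single site is thus counted for both genes, among the 9 members with an entry. In the stretch between Psmb9 and Tap1, the capitals are a Y box close to the Psmb9 start and a TGACG closer to the middle. These matches describe the letters and are not evidence of binding. Nor does a missing match show that a site is absent, because a site may differ from the letters searched. The H2-K1 sequence shown holds tttcacttct, for example, which is close to TTTCNNTTTC, the reverse of GAAANNGAAA.

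In the testis, the pump subunit Tap1 rose, and it was the only member probe that passed the test. Its mean ratio was 0.39 ± 0.39 (SD, n = 10 mice), or 1.31-fold, with a 95% interval from 0.14 to 0.64 on the log2 scale. H2-K1 and Psmb8 had positive means of 0.22 and 0.23 and did not pass. The other members lay within 0.4 of 0, and 3 of the 8 genes had a mean above 0. By limma over 20218 probes with Benjamini-Hochberg adjustment, 1 of 9 member probes was called at an adjusted p under 0.05, where 12.3% of all probes were called and 7.28% were called higher. Unadjusted, 3 of the 8 genes had a p under 0.05, against 30.3% of all probes. The count of members called was thus no larger than the background.

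**Figure D1:**
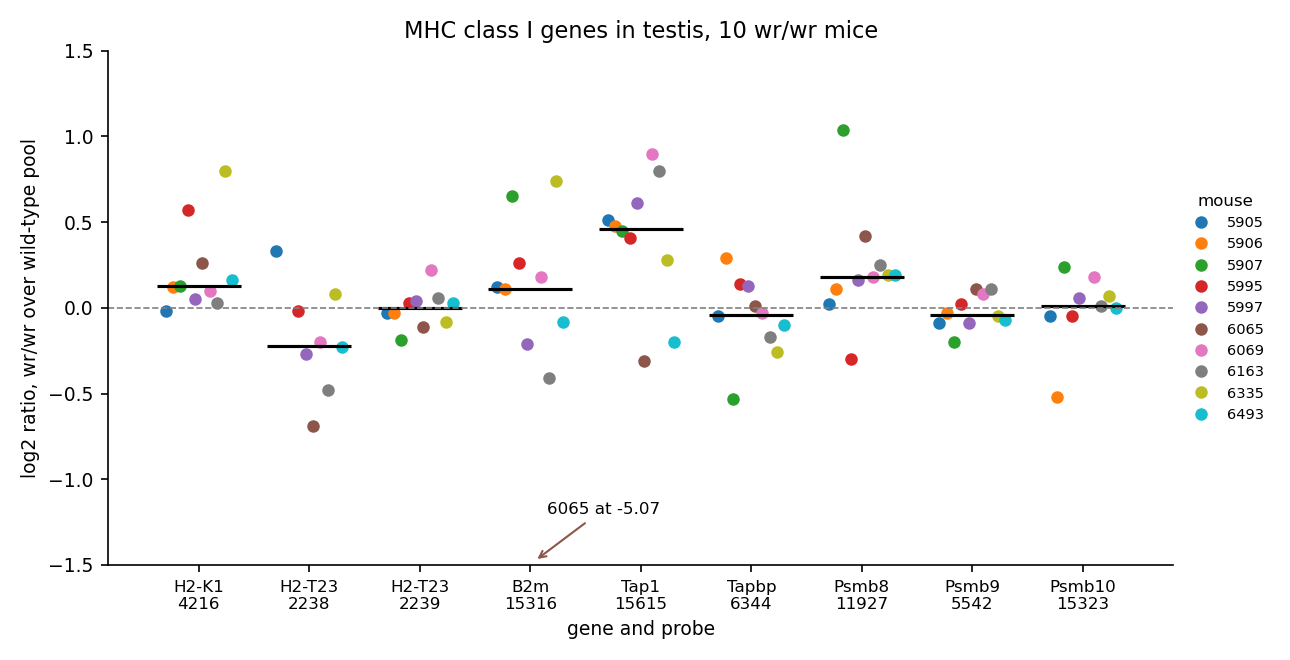
Log2 ratio of wr/wr testis over the wild-type pool (y axis) for each of 9 member probes (x axis), with a point for each of the 10 mice and a black line at the median. Tap1 lies above 0 in 8 mice, H2-K1 and Psmb8 in 9, and mouse 6065 is off the scale for B2m at -5.07, as the arrow shows.

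Tap1, whose product forms the peptide pump with TAP2, had a ratio of 0.51 in mouse 5905, 0.48 in 5906, 0.45 in 5907, 0.41 in 5995, 0.61 in 5997, 0.90 in 6069, 0.80 in 6163 and 0.28 in 6335. It was -0.31 in mouse 6065 and -0.20 in 6493, so 8 of 10 mice were above 0 and 2 were below it. Its adjusted p was 0.0453 by limma. The ratio was higher than that of Tap1 for 0.9% of tested probes. The call was close to the threshold: with each mouse left out in turn the mean ran from 0.34 to 0.47 and the adjusted p from 0.0264 to 0.0936. The call was lost without any of mice 5905, 5906, 5907, 5995, 5997, 6069, 6163 or 6335, and kept without 6065 or 6493.

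The dye orientations of Tap1 lay close together in each testis. The mean of the Cy5 arrays was 0.37 (limma adjusted p = 0.0789) and that of the Cy3 arrays 0.41 (adjusted p = 0.0338), so the call was lost on the Cy5 arrays alone. In mouse 6069 the dyes gave 0.96 and 0.84, in 5905 they gave 0.52 and 0.50, and in 6493 they gave -0.21 and -0.19. Both dyes fell on the same side of 0 in 10 of 10 mice, and the mean gap between them was 0.13. Over the 19394 probes with both dyes in every mouse, 1.16% were on the same side in all 10 mice, the median was 5 mice, and the median gap was 0.27. Mice 6065 and 6493 were thus below 0 in both orientations and the other 8 above 0. These within-mouse comparisons rest on arrays of the same RNA and say nothing of the wild-type spread. Turning the sign of the Cy3 arrays, as if each deposited ratio were Cy5 over Cy3, took the Tap1 mean to -0.02.

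**Figure D2:**
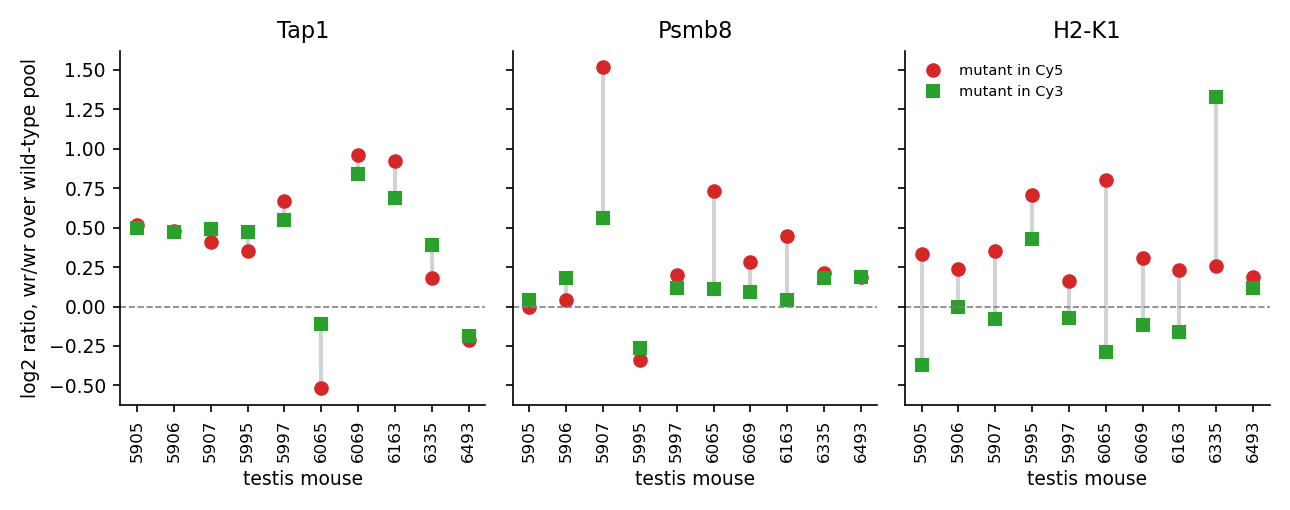
Log2 ratio of wr/wr testis over the wild-type pool (y axis) in each of 10 mice (x axis), with a red circle for the Cy5 arrays of that mouse, a green square for its Cy3 arrays (mean of each, named for the dye of the mutant RNA) and a grey bar between them. The dyes nearly coincide for Tap1, whose mean gap is 0.13, and stand apart for H2-K1, whose mean gap is 0.49.

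H2-K1 encodes a classical heavy chain, which presents peptides to CD8 T cells. Its testis ratio was -0.02 in the lowest mouse (5905), 0.13 at the median and 0.80 in the highest (6335), and 9 of 10 mice were above 0. Mouse 5995 followed at 0.57 and all others were at 0.26 or below, so 2 mice stood above the rest. The value of mouse 6335 rests on 1 Cy3 array at 2.75, with its other arrays at 0.29, 0.24 and -0.09. The mean was 0.22 ± 0.26 (SD, n = 10). The adjusted p was 0.0861 by limma, and 5.94% of tested probes had a higher ratio. On the Cy5 arrays all 10 mice were above 0, with a mean of 0.36 and an adjusted p of 0.011 by limma. On the Cy3 arrays 3 of 10 were above 0, with a mean of 0.08 and an adjusted p of 0.764. The dyes fell on the same side of 0 in 3 of 10 mice. Heavy chain genes are close copies of each other, and the probe sequence is not in the sources used here, so RNA of other heavy chains may add to this probe.

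Psmb8 encodes the immunoproteasome subunit that takes the place of Psmb5. Its testis ratio was -0.30 in the lowest mouse (5995), 0.18 at the median and 1.04 in the highest (5907), with 9 of 10 mice above 0. The 7 mice apart from 5907, 5995 and 6065 lay between 0.02 and 0.25. The mean was 0.23 ± 0.34 (SD, n = 10) with an adjusted p of 0.152 by limma, and without mouse 5907 it was 0.14 (adjusted p = 0.198). Its dyes were on the same side of 0 in 9 of 10 mice, with means of 0.33 in Cy5 and 0.12 in Cy3. Arrays of the same dye differed in some mice. The Cy5 arrays stood at 0.70 and 2.34 in mouse 5907 and at -0.56 and 1.47 in mouse 6163. Of all probes with a value in each mouse, 10.6% had at least 9 of 10 mice above 0.

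The light chain B2m, without which most heavy chains do not reach the surface, had a testis mean of -0.37 ± 1.69 (SD, n = 10, limma adjusted p = 0.638) but a median of 0.11. Mouse 6065 stood at -5.07, and the other 9 mice lay between -0.41 and 0.74. That value comes from a single Cy3 array with a deposited ratio of -16.689, a size read as a channel at its floor. The other arrays of this mouse gave -3.012, 1.066 and -1.691. With such values treated as missing, the mean was 0.00 (adjusted p = 0.988), and without mouse 6065 it was 0.15 (adjusted p = 0.381). The mean gap between dyes for B2m was 1.21 in testis, the widest of the 9 probes, and the 95% interval of its mean ran from -1.43 to 0.69.

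H2-T23 encodes Qa-1, a non-classical heavy chain read by natural killer cells, and its 2 probes disagreed in spread. Probe 2239 stayed close to 0, at -0.01 ± 0.11 (SD, n = 10, limma adjusted p = 0.925), with 5 mice on each side. Probe 2238 ranged from -0.69 in mouse 6065 to 0.33 in mouse 5905, with a mean of -0.19 ± 0.32 (SD, n = 8, limma adjusted p = 0.257). Mice 5906 and 5907 lacked a value for 1 dye on that probe. Its Cy5 mean was -0.40 and its Cy3 mean 0.10, so the dyes differed in direction.

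Tapbp, Psmb9 and Psmb10 were near 0 in testis. Tapbp, the tapasin gene, had a mean of -0.06 ± 0.23 (SD, n = 10), a lowest value of -0.53 in mouse 5907 and a highest of 0.29 in 5906. Psmb9, which takes the place of Psmb6, had the narrowest range of the 9 probes, from -0.20 to 0.11, and a mean of -0.02 ± 0.10 (SD, n = 10). Its 95% interval, from -0.10 to 0.06, does not overlap that of Tap1, with which it shares the 225 bases shown above. The difference between these probes was not tested. Psmb10, which takes the place of Psmb7, had a mean of -0.01 ± 0.22 (SD, n = 9), with mouse 5906 at -0.52 and the next lowest mice at -0.05. The value of mouse 5906 rests on 1 Cy5 array at -1.99, with its other arrays at -0.02, -0.11 and 0.02. Mouse 6065 had no Cy3 value for Psmb10 and is not in that mean, and its Cy5 arrays stood at -3.63 and -1.75. The Psmb10 dye means had opposite signs, -0.41 in Cy5 over 10 mice and 0.15 in Cy3 over 9. For Tapbp they were 0.00 and -0.11, and for Psmb9 0.02 and -0.06. The adjusted p values of Tapbp, Psmb9 and Psmb10 by limma were 0.621, 0.731 and 0.962.

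No pair of members passed a test of varying together between testes. Among 28 pairs of the 8 genes, with probe 2239 for H2-T23, Pearson's r was above 0 in 15 and below 0 in 13, with a median of 0.02. By two-sided permutation tests (100000 resamples, or all orders for pairs with Psmb10, n = 9), 2 pairs had a p for r under 0.05 before adjustment and 4 had one for Spearman's rho. After adjustment over the 28 pairs 0 remained, and the smallest adjusted p was 0.513 for r and 0.248 for rho. H2-K1 and Tap1 had a rho of -0.79 (permutation p = 0.00887, adjusted p = 0.248) and an r of -0.29 (permutation p = 0.438, adjusted p = 0.819). Without mice 5995 and 6335, farthest from the H2-K1 median, r was -0.74. Tap1 and Psmb9, read from the shared stretch, had an r of 0.03 and a rho of 0.03 (permutation p = 0.926 and 0.937, adjusted p = 0.960 and 0.982), and an r of 0.62 without mice 6065 and 6493. Tapbp and Psmb8 had an r of -0.74 (permutation p = 0.023, adjusted p = 0.513) and a rho of -0.68 (permutation p = 0.0349, adjusted p = 0.258), and an r of -0.43 without mice 5906 and 5907. The relation thus weakened without those mice.

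The per-mouse median over the member genes ran from -0.03 in mouse 6493 to 0.19 in mouse 5907. The named probes most like this median over the 10 mice, out of 13336 compared, were those of the tubulin cofactor Tbca (r = 0.90), 1700027A23Rik, Adig and Rpgrip1 (each 0.88) and the ribosomal protein gene Rpl8 (0.87). They were picked as the highest of many and have no test.

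In the spinal cord, the heavy chain H2-K1 and the subunit Psmb8 had ratios above 0 in all 3 RNAs, with means of 0.57 each, or 1.48-fold and 1.49-fold. Tap1 had a mean of -0.24, the opposite side of 0 from its testis mean. None of the 8 member probes tested in cord passed the threshold, but neither did any of the 17055 probes (0% by limma, adjusted p under 0.05). Unadjusted, 1 of the 7 genes tested had a p under 0.05, H2-K1, against 8.65% of all probes. In data simulated for this cord comparison (17055 probes, 3 RNAs), 0% of the probes given a shift of 0.3 or of 1 were recovered, so the count of 0 does not show that the members were unchanged.

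**Figure D3:**
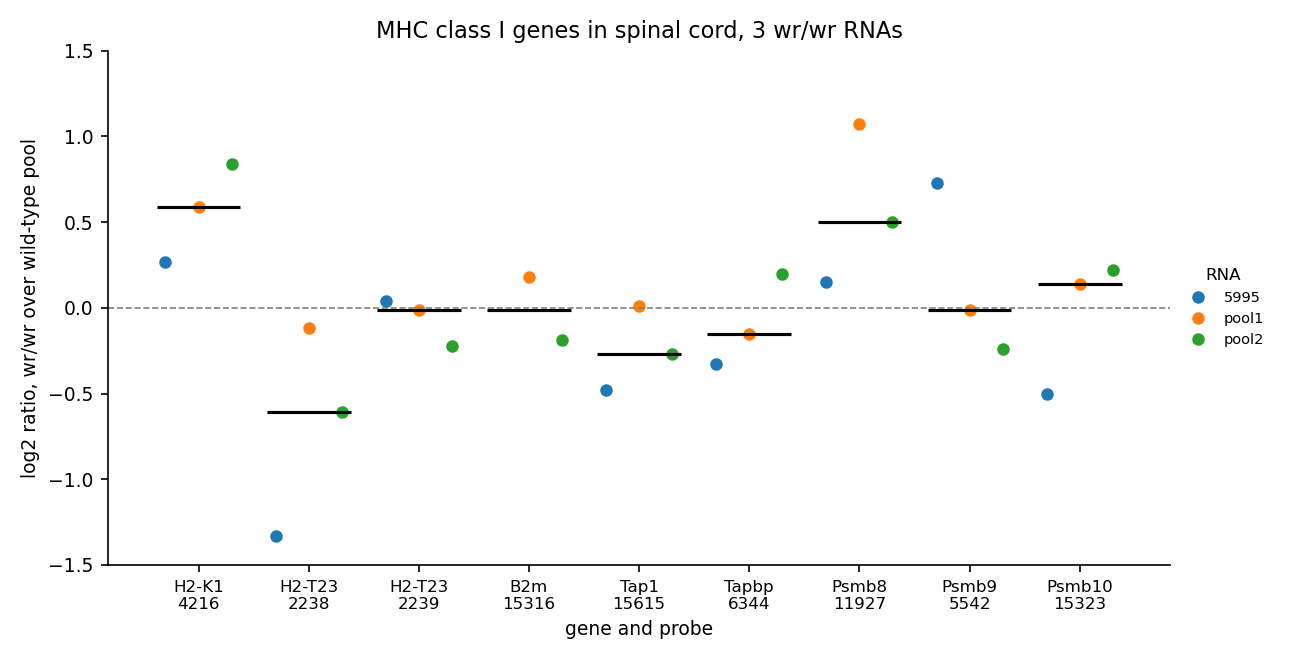
Log2 ratio of wr/wr spinal cord over the wild-type pool (y axis) for each of 9 member probes (x axis), with a point for each RNA (mouse 5995, pool1 and pool2) and a black line at the median. H2-K1 and Psmb8 lie above 0 in all 3 RNAs and H2-T23 probe 2238 below 0 in all 3.

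H2-K1 was 0.27 in mouse 5995, 0.59 in pool1 and 0.84 in pool2, a mean of 0.57 ± 0.28 (SD, n = 3 RNAs) with a 95% interval from 0.13 to 1.01 and an adjusted p of 0.542 by limma. All 3 RNAs were above 0, as for 18.5% of all probes, and 5.18% of probes had a higher mean. The means by dye were 0.80 in Cy5 and 0.34 in Cy3. In mouse 5995 they were 0.62 and -0.08, and in pool2 0.75 and 0.93. Mouse 5995 therefore stood on both sides of 0 and the pools above it. The Cy3 arrays of pool2 stood at 0.21 and 1.65, so the closeness of its dyes rests on a single array. The Cy5 arrays of pool1 stood at 0.67 and 1.37.

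Psmb8 was 0.15 in mouse 5995, 1.07 in pool1 and 0.50 in pool2, a mean of 0.57 ± 0.46 (SD, n = 3) with a limma adjusted p of 0.542. Its dyes stood far apart, at 1.01 in Cy5 and 0.14 in Cy3. In pool1, the highest RNA, the Cy5 mean was 1.85 and the Cy3 mean 0.29. Arrays of the same RNA and dye differed widely: the Cy5 arrays stood at 0.12 and 3.58 in pool1 and at 2.29 and -0.43 in pool2, and the Cy3 arrays at 0.95 and -0.36 and at 0.27 and -0.14. The dye means were above 0 in all 3 RNAs, but the size rests on 1 Cy5 array in each pool. Without pool1 the mean was 0.32 (adjusted p = 0.736).

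H2-T23 probe 2238 was -1.33 in mouse 5995, -0.12 in pool1 and -0.61 in pool2, with dye means below 0 in each, and the mean was -0.68 ± 0.61 (SD, n = 3, limma adjusted p = 0.542). All 3 RNAs were below 0 for 20.8% of probes. Without mouse 5995 the mean was -0.36 (adjusted p = 0.618), and the 4 arrays of pool1 lay on both sides of 0. The other H2-T23 probe, 2239, had a mean of -0.06 ± 0.14 (SD, n = 3), so the drop was not seen on both probes of the gene.

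Tap1 was -0.48 in mouse 5995, 0.01 in pool1 and -0.27 in pool2, a mean of -0.24 ± 0.25 (SD, n = 3, limma adjusted p = 0.567). On the Cy5 arrays the mean was 0.05 and on the Cy3 arrays -0.54, so the cord direction of Tap1 rests on the Cy3 arrays. Without mouse 5995 the mean was -0.13 and without pool1 it was -0.37. Tapbp behaved likewise, with 0.33 in Cy5, -0.52 in Cy3 and a mean of -0.09 ± 0.27 (SD, n = 3). Psmb9 was 0.73 in mouse 5995, -0.01 in pool1 and -0.24 in pool2, a mean of 0.16 ± 0.51 (SD, n = 3) that was -0.12 without the single mouse and 0.36 without pool2. Psmb10 was -0.50 in that mouse, 0.14 in pool1 and 0.22 in pool2. B2m had both dyes in pool1 (0.18) and pool2 (-0.19) only, and was not tested in cord. The dyes fell on the same side of 0 in all 3 RNAs for H2-T23 probe 2238 and Psmb8, as for 13.8% of probes.

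The tissues were compared in 1 fit over 13 RNAs, as testis minus cord, to ask whether a member's ratio differed between the organs. Tap1 had the largest difference, 0.64 higher in testis, with a 95% interval from 0.15 to 1.12 and an adjusted p of 0.0594 by limma. No member probe passed, of 8 compared, while 21.2% of 17005 probes did. The differences of H2-K1 (-0.35, interval from -0.71 to 0.01, adjusted p = 0.147) and Psmb8 (-0.35, interval from -0.83 to 0.14, adjusted p = 0.28) did not pass. They were -0.21 for H2-K1 without pool2, and -0.10 without pool1 and -0.56 without mouse 5995 for Psmb8. H2-T23 probe 2238 differed by 0.50 (adjusted p = 0.172), and the other 4 probes by between -0.18 and 0.06, with intervals that reach -0.50 for Psmb9 and 0.40 for Psmb10.

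**Figure D4:**
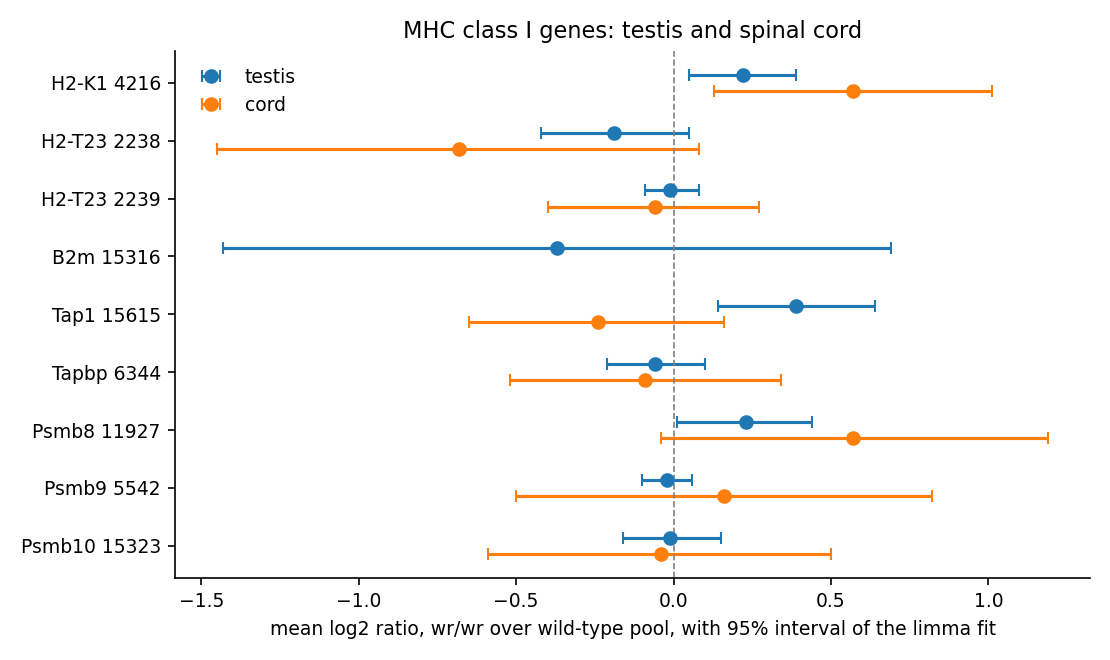
Mean log2 ratio of wr/wr over the wild-type pool (x axis) for each member probe (y axis), in testis (blue, 8 to 10 mice) and spinal cord (orange, 3 RNAs), with bars for the 95% interval of the limma fit. The Tap1 interval is 0.14 to 0.64 for testis, against -0.65 to 0.16 for cord, and B2m has no cord value because it was not tested there.

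For Tap1 the tissue difference was 0.95 on the Cy3 arrays alone (limma adjusted p = 0.00925) and 0.32 on the Cy5 arrays (adjusted p = 0.431), so it passed in 1 dye. It also passed over the 12203 probes with a value on every array (0.64, limma adjusted p = 0.0432), of which 3319 passed. Pairing each cord RNA with the testes of its own mice as a replicate block gave 0.64 again for Tap1 (adjusted p = 0.391) and took the calls over all probes from 3604 to 0. The paired fit holds only 3 differences in place of 13 RNAs, so this loss cannot be ascribed to the pairing. H2-T23 probe 2238 passed without pool1 (0.78, adjusted p = 0.0428), was 0.18 without mouse 5995, and passed on the Cy3 arrays (0.59, adjusted p = 0.0403).

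The genes that work with the members were followed in lists, with 1 probe per gene and with no values by dye. In testis the constitutive proteasome subunits Psmb5 and Psmb7 rose, at 0.24 ± 0.21 (limma adjusted p = 0.0347) and 0.16 ± 0.11 (adjusted p = 0.0242, both SD, n = 10), as 2 of 9 genes of their list, with 0 lower, where 7.28% of all probes were called higher. Psmb6, the counterpart of Psmb9, is added here after its values were seen. It was at 0.08 ± 0.08 (SD, n = 10, adjusted p = 0.0894) on the probe used and at 0.19 (adjusted p = 0.0216) on its other probe. In cord the probe used had a mean of -0.24 and the other probe 0.01, so that drop was not seen on both. Psmb5 is the counterpart of Psmb8 (0.23) and Psmb7 that of Psmb10 (-0.01). In cord Psmb5 was -0.56 ± 0.61 and Psmb7 -0.16 ± 0.03 (SD, n = 3), both below 0 in all 3 RNAs, where Psmb8 was above 0 in all 3. The fit between tissues takes 1 spread for both, although the Psmb5 SD was 0.61 in cord and 0.21 in testis. In that fit the tissue difference passed for Psmb5 (0.80, limma adjusted p = 0.0147) and Psmb7 (0.32, adjusted p = 0.0134). It also passed for Psmb6 on the probe used (0.32, adjusted p = 0.0215), and for 21.2% of all probes. Psmb8 and Psmb5 thus had ratios of the same sign in testis and of opposite sign in cord, a contrast between probes that was not tested.

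Among 8 genes of peptide loading and trimming, 2 rose in testis and 0 fell, against 7.28% and 5.06% of all probes. Calr, the calreticulin chaperone of the loading complex, was at 0.19 ± 0.15 (limma adjusted p = 0.0322), and the peptidase Npepps at 0.12 ± 0.09 (adjusted p = 0.0434, both SD, n = 10). The list's median was 0.10, beside -0.011 for all probes. In cord Calr was -0.24 ± 0.05 (SD, n = 3), and its tissue difference passed (0.43, adjusted p = 0.0106). Of the other class I heavy chains, 4 of 28 listed genes had a probe and 0 of 4 passed in either tissue. H2-Q10, a secreted heavy chain, was at 0.08 in testis and 0.09 in cord, and Azgp1, which has a class I fold, at -0.08 and 0.22.

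Genes of the interferon pathway, which governs class I genes, were tested in the same fits. Of 18 signalling and transcription genes, 0 were higher and 2 lower: Irf8, an interferon response factor of myeloid cells, at -0.14 ± 0.08 (limma adjusted p = 0.0218), and the receptor chain Ifngr1 at -0.12 ± 0.08 (adjusted p = 0.0329, both SD, n = 10). Over all probes 5.06% were called lower and 7.28% higher. The other Irf8 probe was at 0.60 in testis and did not pass (limma adjusted p = 0.716). Of 19 interferon-stimulated genes, Uba7, the activating enzyme for ISG15, rose (0.21 ± 0.18, adjusted p = 0.0347) and the antiviral synthetase Oas1a fell (-0.29 ± 0.27, adjusted p = 0.039). The list's testis median was -0.08, beside -0.011 for all probes. In cord 0 of 12 of these genes passed, the median was 0.25, and 9 of 12 had means above 0. The per-RNA medians of this list in cord were 0.16 in mouse 5995, 0.16 in pool1 and 0.18 in pool2, over the 14, 18 and 17 genes with a value in each. Irf8 was 0.43 ± 0.18 (SD, n = 3) in cord, with a tissue difference of -0.57 (adjusted p = 0.00161).

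**Figure D5:**
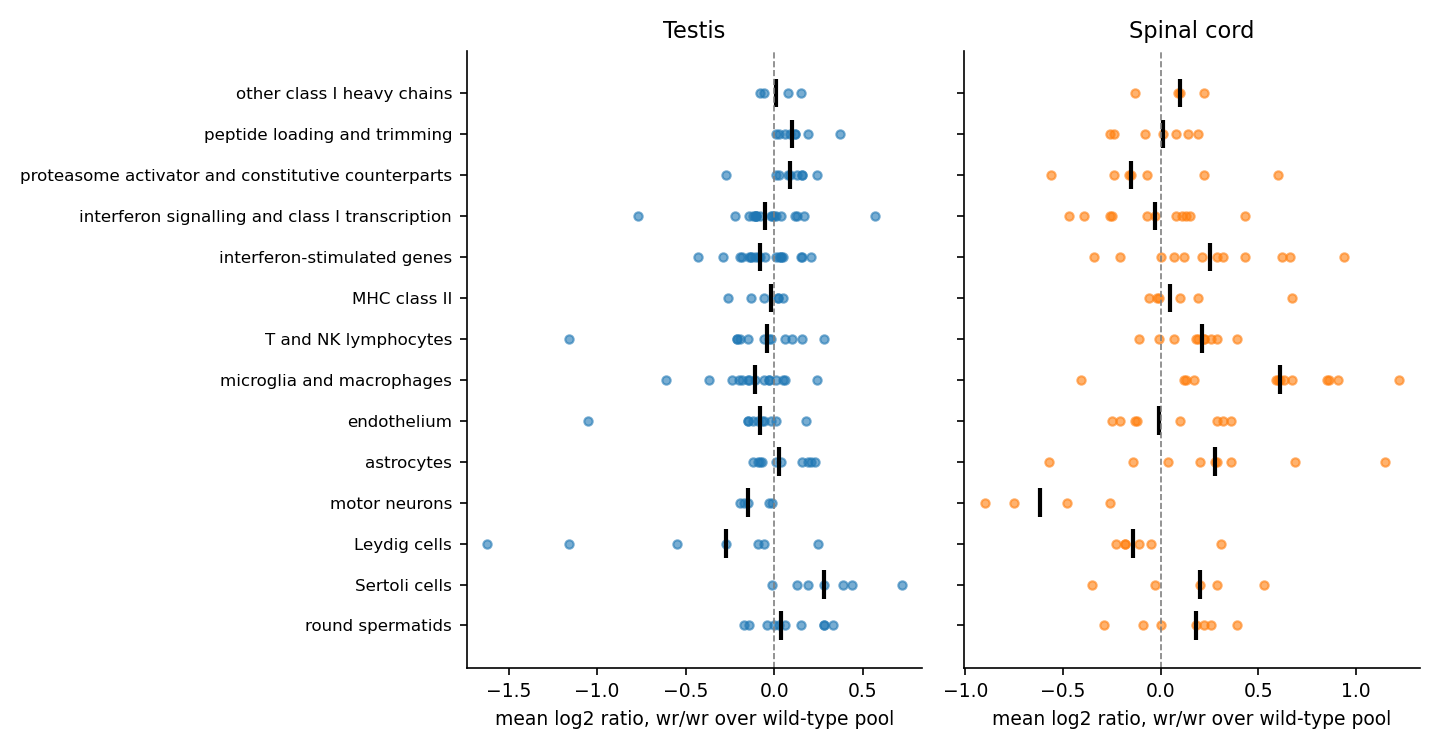
Mean log2 ratio of wr/wr over the wild-type pool (x axis) for the genes of each list (y axis), 1 point per gene, in testis (left) and spinal cord (right, on its own scale), with a black bar at the list's median. Microglia and macrophage genes have a median of -0.11 in testis and 0.61 in cord, and interferon-stimulated genes -0.08 and 0.25.

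Markers of other cell types were read in the same way. In cord, 12 of 13 microglia and macrophage genes had means above 0, with a median of 0.61, while 0 passed. The list's medians were 0.51 in mouse 5995, 0.64 in pool1 and 0.69 in pool2. Complement C1qa was 0.67 ± 0.12 and C1qc 0.59 ± 0.14, with Cd68 at 0.60 ± 0.19 and Lyz2 at 0.61 ± 0.33 (SD, n = 3). In testis 5 of 15 of these genes fell, where 5.06% of all probes were called lower, among them Cd68 (-0.37 ± 0.26, limma adjusted p = 0.0185), C1qa (-0.24 ± 0.19, adjusted p = 0.0262), Lyz2 (-0.18 ± 0.13, adjusted p = 0.024) and C1qc (-0.15 ± 0.08, adjusted p = 0.0204, all SD, n = 10). The other Lyz2 probe was at 0.27 in testis (adjusted p = 0.127). The per-mouse medians of this list in testis ran from -0.31 to -0.06. The part of these cells in the class I ratios was not tested.

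The counts of the next lists stand beside 7.28% of all probes called higher and 5.06% called lower in testis, and 0% called in cord. MHC class II, a marker of antigen-presenting cells, had 1 of 6 genes lower in testis, H2-Eb1 at -0.26 ± 0.15 (limma adjusted p = 0.0154), and 0 of 6 called in cord. This count depends on the probe taken: for Cd74 the probe used did not pass (-0.13, adjusted p = 0.0911), and its other 2 probes were called lower (-0.33, adjusted p = 0.0322, and -0.27, adjusted p = 0.00371). Of 12 T and NK lymphocyte genes, Cd247 (-0.19 ± 0.10, adjusted p = 0.015) and Cd2 (-0.21 ± 0.20, adjusted p = 0.047) fell in testis on the probe used. The other Cd247 probes did not pass there (-0.20, 0.22 and -0.04, limma adjusted p = 0.387, 0.359 and 0.873). Nor did the other Cd2 probe (-0.06, adjusted p = 0.526). The cord median of this list was 0.21 with 0 of 10 called. Of 10 endothelial genes, Esam fell in testis (-0.15 ± 0.10, adjusted p = 0.0277). Sertoli cell genes were higher in testis (5 of 7, such as Cst12 at 0.72 ± 0.26, adjusted p = 0.00126) and Leydig cell genes lower (4 of 7, such as Ptgds at -1.62 ± 0.49, adjusted p = 0.000295), against 7.28% and 5.06% of all probes. Hsd3b1 of the Leydig list was at 0.25 ± 0.28 (adjusted p = 0.0665). Of 10 round spermatid genes only Acr passed, lower at -0.14 ± 0.11 (adjusted p = 0.0379), and its other probe was at -0.11 (limma adjusted p = 0.107). In the lists of nervous tissue, Sox9 and Vim of 10 astrocyte genes rose in testis (0.19 and 0.23) and Nefh and Ache of 5 motor neuron genes fell there (-0.19 and -0.17). Sox9 is also 1 of the 5 Sertoli genes, and its other probe was at -0.14 (adjusted p = 0.14). In cord the astrocyte median was 0.28 and the motor neuron median -0.62. The motor neuron median rests on 4 of 11 listed genes, Nefh, Nefm, Prph and Ache. The markers Chat, Slc18a3, Isl1 and Mnx1, among others, had no probe. The part of the Sertoli, Leydig and germ cell changes in the Tap1 ratio was not tested.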

How the data were processed

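The authors deposited 1 log2 ratio for each probe of each of 50 arrays. How background was corrected, how the arrays were normalized and filtered, and the base and direction of the ratio were not given in the sources used here. Cy3 and Cy5 labelling was indirect, per the labels' protocols. The labels list 10 wild-type mice per pool and the labelling protocol names 6, which was not settled. A testis array held 19070 to 20189 values and a cord array 18338 to 20034. The number of RNAs limits the precision, and intensities were not used here.

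Each array was centred on its median. Arrays of the same dye and RNA were averaged, then the Cy5 and Cy3 means, so an RNA counts once. Probes needed both dyes in at least 8 testis mice or in all 3 cord RNAs. Ratios were tested against 0, and testis against cord, with limma 3.58.1 in R 4.3.3 over all probes, with Benjamini-Hochberg adjustment at 0.05. The steps were tested on simulated data. The labels give mouse numbers, so cord RNAs and testes of the same mice pair. Their deviations correlated at r = -0.00363 for mouse 5995, 0.00555 for pool1 and 0.0302 for pool2.

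The members and lists were chosen with earlier results of these data known. All member probes are named. From each list (1 probe per gene, the one with most values) a naming rule picked genes with an adjusted p under 0.05, at most 4. Where no gene passed, it picked the 2 with the smallest p. For the Sertoli and Leydig lists the text names only some of the genes picked. Beyond this rule, Psmb8's and Psmb10's counterparts are paired with them by known function. Pathway and marker lists are described by counts and medians with no list test. Alternatives covered dye, sign, centring, scaling, floored values (over 15 in size), probe averaging, filters, pairing and each RNA left out.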

Additional observations from a re-analysis of the deposited data

Results flagged for a closer look

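A closer look took 40 probes, those of the members and of the list genes picked by the naming rule. By Dixon's criterion, 3 of these probes had a mouse far from the rest of the 10 testis mice (fewer where values lacked). Chance gives about 1 in 20. B2m stood at -5.07 in mouse 6065, with the next mouse at -0.41, and this value comes from the floored array described above. Psmb10 stood at -0.52 in mouse 5906, with the next at -0.05, and this value rests on 1 Cy5 array at -1.99. Cd247 stood at -0.44 in mouse 5997, with the next at -0.21.

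Of 34 member and rule-picked probes compared between the tissues, 14 differed by limma over the 13 RNAs at an adjusted p under 0.05. None of these was a class I member, and Psmb6 was outside the set. The fit takes 1 spread for both tissues. Over all probes 21.2% differed, and most list genes were picked for passing in testis, whose values also enter this difference, so the 2 shares are not comparable. Higher ratios in testis than in cord were found for Calr (0.43, adjusted p = 0.0106), Psmb7 (0.32, adjusted p = 0.0134), Psmb5 (0.80, adjusted p = 0.0147) and Nefh (0.71, adjusted p = 0.00141). Lower ratios in testis were found for the myeloid genes Irf8 (-0.57, adjusted p = 0.00161), Cd68 (-0.97, adjusted p = 0.00261), C1qc (-0.73, adjusted p = 0.000302), Lyz2 (-0.79, adjusted p = 0.00216) and C1qa (-0.91, adjusted p = 0.00104). The same held for Cd247 (-0.37, adjusted p = 0.0121), Vim (-0.93, adjusted p = 0.00141), Hsd17b3 (-0.36, adjusted p = 0.0182), Ptgds (-1.44, adjusted p = 0.00723) and Acr (-0.31, adjusted p = 0.0171). The other Acr probe was at -0.11 in testis and -0.01 in cord. These tissue differences lost their calls when cord RNAs were paired with the testes of their mice, where 0 of 16983 probes passed. That fit holds only 3 differences, from the 3 cord RNAs, so the loss cannot be ascribed to the pairing.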

How the results depend on the processing

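The count of members called in testis was 1 of 9, beside 2494 of 20218 probes in all. It was 0 with the sign of the Cy3 arrays turned (949 of 20218 in all) and between 0 and 1 with each mouse left out. In those fits without a mouse, 846 to 2618 probes passed in all. The count in cord was 0 under every alternative run, and so was the count over all probes. For the tissue difference it was 0 of 8, but 2 of 9 on the Cy3 arrays alone, where 4640 of 18618 probes passed in all. It was 1 of 5 over probes with a value on every array (3319 of 12203 in all). With the sign of the Cy3 arrays turned it was 1 of 8 (1832 of 17005 in all). With each cord RNA left out it was between 0 and 1, and 1 of 8 without pool1 (4684 of 17053 in all). With cord RNAs and testes of the same mice as a replicate block it was 0, in a fit of only 3 differences. The median over member genes was -0.01 in testis, 0.08 on the Cy3 arrays and from -0.03 to 0.08 with each mouse left out. In cord it was -0.04, 0.01 after scaling the arrays, 0.07 on the Cy3 arrays, 0.33 on the Cy5 arrays, 0.23 with the Cy3 sign turned, and from -0.06 to 0.02 with each RNA left out. With that sign turned, Tap1 reversed in testis (-0.02), in cord (0.30) and in the tissue difference (-0.31), as did Tapbp in cord (0.42) and in the difference (-0.37) and H2-T23 probe 2238 in the difference (-0.09). On the Cy5 arrays, Tap1 (0.05) and Tapbp (0.33) reversed in cord, and Tapbp (-0.33) and Psmb10 (-0.18) in the difference. With each cord RNA left out, the difference ran from -0.19 to 0.17 for Psmb10 and from -0.38 to 0.10 for Psmb9, and both reversed without mouse 5995. The causes of these shifts were not tested, and 327 of the other values for single probes kept their direction and side of the threshold or moved by less than the spread between RNAs. Precision is limited by 3 cord RNAs and by 1 wild-type pool per tissue. Signal over background was not examined, because the values are ratios.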
